A study of Mus musculus with 6 samples.

Results

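The cell division genes are 40 genes whose transcripts accumulate when cells copy their DNA and divide. They were chosen by name as a list, 16 that act at the start of or during DNA replication (the S phase genes) and 24 that act in chromosome segregation and cell separation (the mitosis genes). All 40 were measured, among 18992 genes or unnamed features that passed the same filter. Their RNA was measured in epididymal white adipose tissue, the fat depot beside the testis, of 3 patDp/+ mice and 3 wild type mice. All 6 animals were males of 9 to 10 weeks on the C57BL/6 background, and each gave 1 one-colour Agilent array; mice are numbered by the replicate numbers of the sample titles. patDp/+ mice inherit from the father an extra copy of a stretch of chromosome 7 that models the human 15q11-13 duplication syndrome, and wild type mice carry no such copy. The duplication is carried by all cells of the animal, and the tissue was profiled whole, so adipocytes were measured together with blood, vessel, immune and progenitor cells. The series' title speaks of obesity that appears late in life, and the comparison addresses how young adult fat differs between the genotypes before that age.

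Cells commit to division when E2F transcription factors, released from the retinoblastoma protein, switch on the genes of DNA replication. A later wave of genes, driven through the MuvB complex with B-MYB and FOXM1, supplies the cyclins, kinases, motors and kinetochore proteins of mitosis. S phase proteins such as the MCM helicase are made in excess and also serve DNA repair and quiescent cells, while most mitosis transcripts are kept off outside division. Mature adipocytes rarely divide, and in fat of young mice dividing cells include adipocyte progenitors, vessel cells and macrophages.

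The promoters of the 2 gene sets hold different letter motifs linked to these factors, so the bases before the start site are shown for 6 members. They are 150 bases upstream of the RefSeq start on GRCm38.p6, 5′ to 3′ on the strand of the gene. Capitals mark the cell cycle homology region (TTTGAA or TTCGAA), the CCAAT box, and an E2F site (TTTGGCGC, TTTCCCGC, TTTCGCGC or TTTGCCGC), each on either strand. Overlapping E2F matches in the Mcm6 sequence form 1 run of capitals. The first 4 are mitosis genes and the last pair are S phase genes.
Cdc20, chr4:118437344-118437493, minus strand: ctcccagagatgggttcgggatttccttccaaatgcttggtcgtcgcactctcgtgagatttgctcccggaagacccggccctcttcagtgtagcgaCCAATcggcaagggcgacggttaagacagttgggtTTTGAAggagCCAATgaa
Ube2c, chr2:164769779-164769928, plus strand: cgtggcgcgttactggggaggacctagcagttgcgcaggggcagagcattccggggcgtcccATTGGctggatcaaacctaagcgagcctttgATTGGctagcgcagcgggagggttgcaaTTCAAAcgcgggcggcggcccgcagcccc
Ccnb2, chr9:70421555-70421704, minus strand: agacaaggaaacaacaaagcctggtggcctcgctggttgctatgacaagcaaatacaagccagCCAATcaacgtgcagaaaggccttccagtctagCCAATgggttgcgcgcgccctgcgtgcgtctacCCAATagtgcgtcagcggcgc
Cdk1, chr10:69352913-69353062, minus strand: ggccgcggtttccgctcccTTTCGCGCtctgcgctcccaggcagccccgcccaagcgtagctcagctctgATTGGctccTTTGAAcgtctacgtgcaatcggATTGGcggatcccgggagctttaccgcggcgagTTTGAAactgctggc
Mcm6, chr1:128359706-128359855, minus strand: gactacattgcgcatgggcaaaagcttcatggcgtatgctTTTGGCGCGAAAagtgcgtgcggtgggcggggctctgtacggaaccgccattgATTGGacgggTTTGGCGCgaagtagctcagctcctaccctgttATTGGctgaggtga
Cdc6, chr11:98908001-98908150, plus strand: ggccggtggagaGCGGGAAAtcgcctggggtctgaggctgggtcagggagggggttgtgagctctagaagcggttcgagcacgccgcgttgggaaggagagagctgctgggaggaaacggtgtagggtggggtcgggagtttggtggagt

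Cdc20 and Ube2c show the arrangement common among the mitosis genes, CCAAT boxes beside a cell cycle homology region. Cdk1 holds both that arrangement and an E2F site, and Ccnb2 shows CCAAT boxes alone in this stretch. Over a window from 250 bases before to 50 bases after the start, the RefSeq table held 20 mitosis genes and 13 S phase genes. A cell cycle homology region was found in 15 of 20 mitosis genes and in 2 of 13 S phase genes, against 19.4% of 27025 genes with a window. A cell cycle homology region together with 2 or more CCAAT boxes was found in 9 of 20 mitosis genes and 1 of 13 S phase genes, against 2.4% of all genes. E2F sites had the opposite distribution, with 1 of 20 mitosis genes (5.0%) and 6 of 13 S phase genes (46.2%), against 2.3% of all genes. CCAAT boxes, with or without a cell cycle homology region, were in 16 of 20 mitosis genes (80.0%), 8 of 13 S phase genes (61.5%) and 37.9% of all genes. These are matches of letters and say nothing of whether a factor was bound in fat. Ccne2, Mcm4, Gins2, Ccna2, Aurkb, Tpx2 and Kif20a had no window in the table.

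The genotype labels and the tissue were checked first. Snrpn and Ndn, paternally expressed genes of the duplicated stretch, were higher in each patDp/+ mouse than in any wild type mouse, by 2.26-fold and 2.10-fold, and so was Ube3a, by 1.40-fold (adjusted p = 0.35, 0.35 and 0.404, limma). All 8 adipocyte markers were well above background on all 6 arrays, and 0 of 7 markers of epididymis epithelium passed the filter. Of 7 testis germ cell markers, however, 6 passed, each on all 6 arrays. Relative to the 75th percentile of the array, their mean log2 levels were -4.33 to -3.08 in patDp/+ mice and -4.31 to -3.10 in wild type mice. Whether their signal came from testis cells was not tested. The lowest correlation between any pair of arrays, taken across genes, was 0.988. Between 63.8% (patDp/+ mouse 3) and 72.1% (patDp/+ mouse 1) of probes were well above background. Of the 5 members on chromosome 7 (Ccne1, Prc1, Rrm1, Plk1 and Mki67), 0 lie in the stretch between the probes of Herc2 and Mkrn3, and the nearest, Prc1, lies 17.9 Mb away (mm9).

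No cell division gene differed between the genotypes past the threshold. By limma, 0 of 40 passed an adjusted p of 0.05 over all genes tested (smallest 0.856) and 0 of 40 had an unadjusted p under 0.05. Over the whole table, 0.0% of genes passed the adjusted threshold (smallest adjusted p 0.35) and 5.78% had an unadjusted p under 0.05, 454 of them higher and 644 lower in patDp/+ fat. All 40 intervals (95%) of the log2 difference included 0. The half-width of these intervals, which are not adjusted for the number of genes, ran from 0.16 to 0.80 on the log2 scale. With 3 animals a group, larger differences could also miss the adjusted threshold. Snrpn, with a log2 difference of 1.18 ± 0.12 (SE), had an adjusted p of 0.35 (limma). The median log2 difference, patDp/+ minus wild type, was 0.04 over the S phase genes, 0.08 over the mitosis genes and -0.02 over all genes. The mitosis median was 0.28 with normexp, a model-based background correction of the raw spot signals in place of the scanner's processed signal. On the processed signal, leaving out 1 mouse at a time, it ran from -0.06 without patDp/+ mouse 2 to 0.25 without patDp/+ mouse 3 (0.18 without wild type mouse 3), so its sign was not settled. The difference was above 0 in 29 of 40 members, against 43.6% of all genes, but in 27 of 40 it was smaller than its standard error. The groups did not overlap in 4 of 40 members, higher for E2f1, Mcm4 and Nusap1 and lower for Mcm7, against 11.2% of all genes. In the plot of differences, intervals of the mitosis genes are mostly wider than those of the S phase genes.

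**Figure D1:**
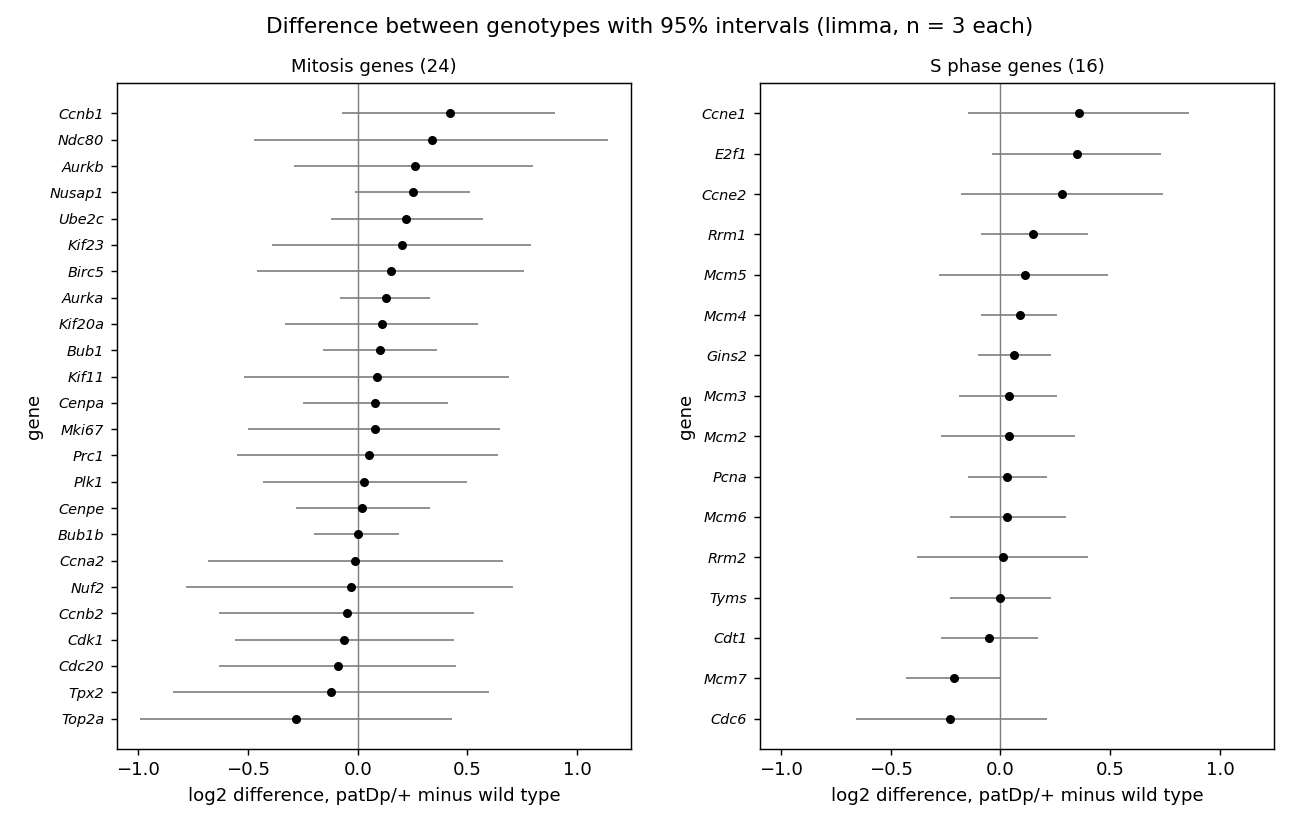
Log2 difference, patDp/+ minus wild type, of each cell division gene on the x axis, with points for the limma estimate and bars for its 95% interval (n = 3 mice each). All 40 bars reach or cross 0, and Ccnb1 (0.42) and Top2a (-0.28) mark the ends of the mitosis genes.

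The S phase genes are described by their step in replication. Values are log2 of the processed signal relative to the 75th percentile of the array, so they compare animals for 1 probe and not genes with one another. E2f1, the activator transcription factor of the G1 to S transition (2 probes, the brighter on chromosome 2, 154386004 to 154386063, minus strand, mm9), had -1.65, -1.71 and -1.51 in patDp/+ mice 1 to 3, against -2.31, -1.80 and -1.80 in wild type mice 1 to 3. All 3 patDp/+ mice were above the wild type mice, narrowly so for 2 of the wild type mice and by a wide margin for wild type mouse 1. The log2 difference was 0.35 ± 0.16 (SE, adjusted p = 0.859). Its second probe gave 0.30 ± 0.12 (unadjusted p = 0.0524), with wild type mouse 1 again lowest.

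Ccne1 and Ccne2 encode the E-type cyclins that, with Cdk2, start replication. Ccne1 had 0.21, -0.07 and 0.21 in patDp/+ mice, against -0.69, 0.01 and -0.04 in wild type mice. The groups overlapped, and wild type mouse 1 stood below the other 5 animals, as it did for E2f1. The log2 difference of Ccne1 was 0.36 ± 0.21 (SE, adjusted p = 0.889), made up of 0.90, -0.08 and 0.25 on slides 1, 2 and 3. Its other probe gave 0.17 ± 0.22. Ccne2 had -4.25, -4.63 and -4.98 in patDp/+ mice, against -4.78, -4.92 and -5.00 in wild type mice, a log2 difference of 0.28 ± 0.19. It was near the detection limit and not well above background in patDp/+ mouse 3.

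Cdc6 and Cdt1 load the MCM helicase onto origins. Cdc6 had -3.55, -3.75 and -4.11 in patDp/+ mice, against -3.38, -3.53 and -3.82 in wild type mice. Each patDp/+ mouse was below the wild type mouse on its slide, by 0.17, 0.22 and 0.30, yet the groups overlapped and the log2 difference was -0.23 ± 0.18 (SE). The second Cdc6 probe ranked the animals differently, with wild type mouse 2 highest and patDp/+ mouse 2 lowest, and had a difference of -0.02 ± 0.42. Cdt1 had a difference of -0.05 ± 0.09.

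Mcm2 to Mcm7 encode the 6 subunits of the replicative helicase. Mcm7 had 1.78, 1.93 and 1.87 in patDp/+ mice, against 2.16, 1.95 and 2.11 in wild type mice. It was the 1 member whose patDp/+ mice were all below the wild type mice, by 0.02 between patDp/+ mouse 2 and wild type mouse 2, with a log2 difference of -0.21 ± 0.09 (SE, interval -0.43 to 0.00, adjusted p = 0.856). Mcm2 had -1.44, -1.47 and -1.69 in patDp/+ mice, against -1.76, -1.37 and -1.58 in wild type mice. Mcm5 had -0.47, -0.57 and -1.04 in patDp/+ mice, against -0.80, -0.72 and -0.88 in wild type mice. The groups overlapped for both, with differences of 0.04 ± 0.13 and 0.11 ± 0.16. For Mcm5, patDp/+ mice 1 and 2 were above all wild type mice and patDp/+ mouse 3 was below them all. Mcm4 was above in all 3 patDp/+ mice by a small margin (0.09 ± 0.07), and Mcm3 (0.04 ± 0.09) and Mcm6 (0.03 ± 0.11) overlapped. The estimates of the 6 subunits did not share a sign. Gins2, a subunit of the GINS complex that activates the helicase, had a difference of 0.06 ± 0.07.

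Rrm1 and Rrm2 encode the subunits of ribonucleotide reductase, which makes deoxyribonucleotides. Rrm1 had 0.32, 0.49 and 0.33 in patDp/+ mice, against 0.12, 0.19 and 0.38 in wild type mice (difference 0.15 ± 0.10). Rrm2, the subunit that cycling cells induce, had -3.63, -3.54 and -3.90 in patDp/+ mice, against -3.99, -3.59 and -3.50 in wild type mice (0.01 ± 0.16). The groups overlapped for both genes. Pcna, the sliding clamp of the DNA polymerases, had 2.99, 2.84 and 2.87 in patDp/+ mice and 2.87 in each of the 3 wild type mice. Its interval, -0.15 to 0.21, was among the narrowest of the members. Tyms, thymidylate synthase, had a difference of 0.00 ± 0.09.

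Among the mitosis genes the spread between animals of 1 genotype was larger than most differences between genotypes. Mki67, the gene of the Ki-67 proliferation antigen (chromosome 7, 142881591 to 142881650, minus strand, mm9), had 0.36, 0.81 and -0.05 in patDp/+ mice, against 0.30, 0.06 and 0.53 in wild type mice. Both the highest and the lowest animal were patDp/+, mouse 2 and mouse 3, and the log2 difference was 0.08 ± 0.24 (SE, interval -0.50 to 0.65). Top2a, the topoisomerase that untangles sister chromatids, had -3.31, -2.96 and -3.93 in patDp/+ mice, against -2.73, -3.46 and -3.17 in wild type mice. It was lowest in patDp/+ mouse 3 and highest in wild type mouse 1, with a difference of -0.28 ± 0.29.

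Cyclin B and Cdk1 form the kinase that drives cells into mitosis. Ccnb1 (cyclin B1) had -4.55, -4.09 and -4.55 in patDp/+ mice, against -4.78, -5.13 and -4.54 in wild type mice. Wild type mouse 3 lay within the patDp/+ values and the other 2 wild type mice below them, with a log2 difference of 0.42 ± 0.20 (SE, adjusted p = 0.866). Cdk1 had -2.96, -2.82 and -3.52 in patDp/+ mice, against -3.11, -3.19 and -2.80 in wild type mice. For Cdk1 the lowest animal was patDp/+ mouse 3, the highest was wild type mouse 3, just above patDp/+ mouse 2, and the difference was -0.06 ± 0.21. Cyclin B2 (Ccnb2, -0.05 ± 0.24) and cyclin A2 (Ccna2, -0.01 ± 0.28) had differences far smaller than their errors.

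The mitotic kinases differed among themselves. Aurkb, the kinase of the chromosomal passenger complex, had -3.10, -3.08 and -3.81 in patDp/+ mice, against -3.47, -3.80 and -3.49 in wild type mice (difference 0.26 ± 0.22). Birc5 (survivin), of the same complex, had a difference of 0.15 ± 0.25. Aurka, the spindle pole kinase, had -0.60, -0.74 and -0.64 in patDp/+ mice, against -0.88, -0.78 and -0.71 in wild type mice (0.13 ± 0.08). The Aurka values spanned a narrow range, and only wild type mouse 3 lay inside the patDp/+ range. The checkpoint kinase genes Bub1 (0.10 ± 0.11) and Bub1b, and the polo kinase gene Plk1 (0.03 ± 0.19), had differences under their errors.

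Cdc20 and Ube2c work with the anaphase-promoting complex, which ends mitosis by marking cyclins for degradation. Ube2c had -0.64, -0.60 and -0.74 in patDp/+ mice, against -1.18, -0.78 and -0.69 in wild type mice (difference 0.22 ± 0.14). Wild type mouse 1 was the low animal, and wild type mouse 3 lay within the patDp/+ range. Cdc20 had a difference of -0.09 ± 0.22.

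Of the spindle genes, Nusap1, which bundles microtubules, had -1.58, -1.34 and -1.61 in patDp/+ mice, against -1.85, -1.64 and -1.79 in wild type mice. It was the 1 mitosis gene with all patDp/+ mice above all wild type mice, by 0.03 at the closest, and the only mitosis gene other than Aurka and Bub1 above its slide partner on all 3 slides. The log2 difference was 0.25 ± 0.11 (SE, interval -0.01 to 0.51, adjusted p = 0.856). The motor genes Kif11 (0.09 ± 0.25), Kif20a (0.11 ± 0.18) and Kif23 (0.20 ± 0.24), the midzone gene Prc1 (0.05 ± 0.24) and the spindle assembly gene Tpx2 (-0.12 ± 0.30) all overlapped between groups. Of the kinetochore genes, Ndc80, whose protein binds microtubules, had -3.55, -4.20 and -4.84 in patDp/+ mice, against -4.40, -4.83 and -4.36 in wild type mice. Its patDp/+ mice included both the highest and the lowest animal (0.34 ± 0.33). Its partner Nuf2 (-0.03 ± 0.31), the centromeric histone gene Cenpa (0.08 ± 0.14) and the kinetochore motor gene Cenpe (0.02 ± 0.12) showed smaller differences.

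With the processed signal, the mitosis genes varied together from animal to animal, and this order crossed the genotypes. Each gene was centred on its mean over the 6 animals, and the centred values were averaged over the genes. The mean of the 24 mitosis genes was 0.10, 0.31 and -0.30 in patDp/+ mice 1 to 3, against -0.09, -0.18 and 0.16 in wild type mice 1 to 3. The lowest and highest means were both in patDp/+ mice, a range of 0.61 in that group against 0.34 in wild type. These ranges were 0.40 and 0.23 in the authors' deposited table and 0.29 and 0.21 with normexp. With normexp the means did not cross, at 0.05, 0.09 and 0.34 in patDp/+ mice, against -0.20, -0.24 and -0.03 in wild type mice. Each patDp/+ mean was then above each wild type mean. Over all genes with levels below -3, the normexp medians were 0.10, -0.38 and 1.13 in patDp/+ mice, against -0.29, -0.23 and -0.35 in wild type mice. There too patDp/+ mouse 3 was highest, but patDp/+ mouse 2 was lowest. In the 6 brightest mitosis genes, named below, the normexp means still crossed, at -0.04, 0.33 and -0.19 against -0.10, -0.17 and 0.17. The mean of the 16 S phase genes was 0.12, 0.06 and -0.08 in patDp/+ mice, against -0.10, 0.02 and -0.02 in wild type mice, with ranges of 0.20 and 0.12, or 0.19 and 0.11 with normexp. The range of the S phase genes was below that of the mitosis genes, by a wide margin with the processed signal and by less with normexp. In whole tissue, fewer dividing cells and less of these RNAs per cell cannot be told apart.

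**Figure D2:**
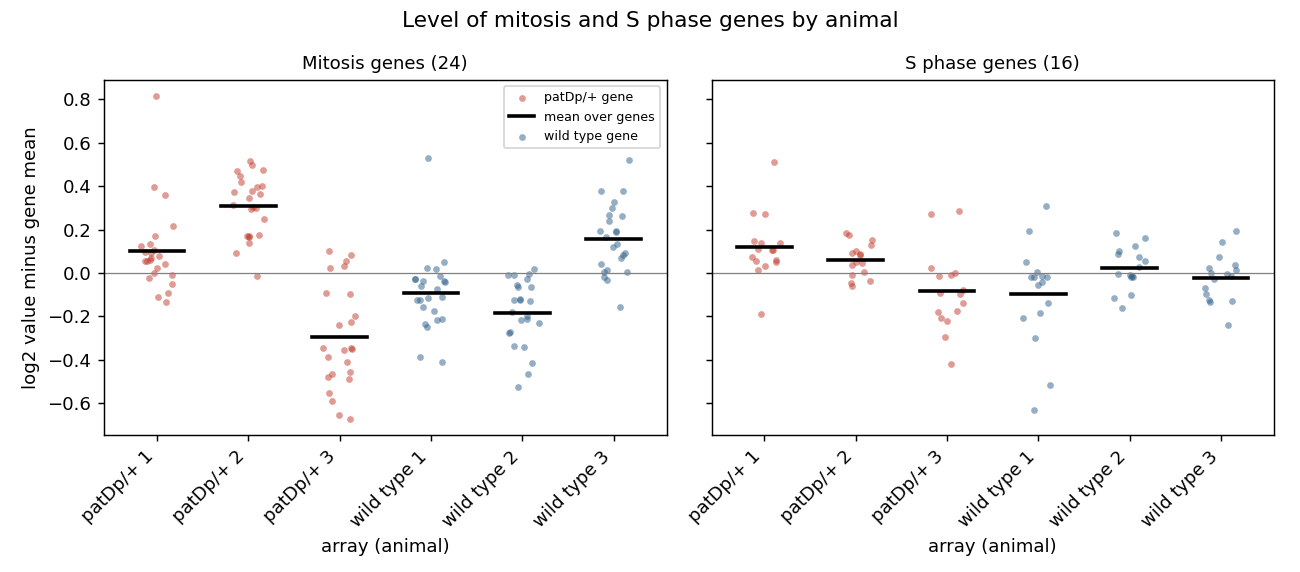
Centred log2 processed signal of each gene (points, y axis) in each animal (x axis), with the mean over genes as a black line, for 24 mitosis genes and 16 S phase genes. The mitosis mean runs from -0.30 in patDp/+ mouse 3 to 0.31 in patDp/+ mouse 2, while the S phase means lie between -0.10 and 0.12.

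The order was shared by most mitosis genes when the processed signal was used. The pattern was picked out after the values were seen, and since the genes were measured in the same 6 RNA samples, the counts describe these animals and are no test. patDp/+ mouse 2 was the highest of the 6 animals for 16 of 24 mitosis genes, against 11.6% of all genes, and for 3 of 16 S phase genes. patDp/+ mouse 3 was the lowest for 16 of 24 mitosis genes, against 19.3% of all genes, and for 4 of 16 S phase genes. With normexp that count turned round, and patDp/+ mouse 3 was the lowest for 2 of 24 mitosis genes and the highest for 15 of 24. With the processed signal, both the high and the low animal held for 10 of 24 mitosis genes, against 2.82% of all genes and 0 of 16 S phase genes. Among wild type mice, mouse 3 was the highest for 20 of 24 mitosis genes, against 31.5% of all genes, and for 2 of 16 S phase genes. The genes that departed from the low value in patDp/+ mouse 3 were Ccnb1, Bub1, Aurka, Ube2c, Nusap1, Cenpa, Birc5 and Kif20a, and for Birc5 and Kif20a wild type mouse 2 was lower still.

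**Figure D3:**
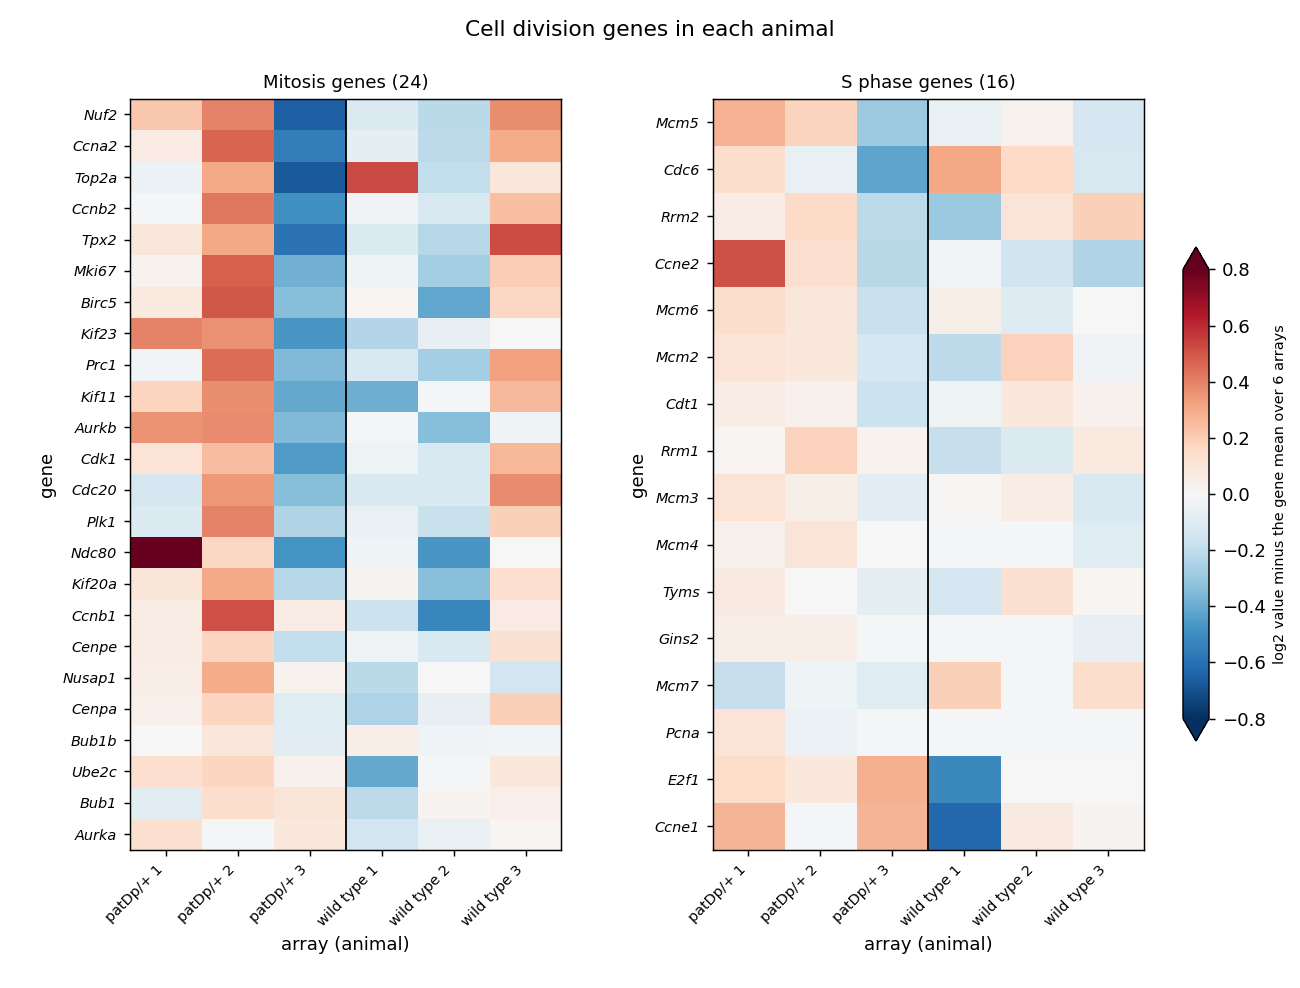
Log2 processed signal of each gene minus its mean over the 6 animals, shown by colour (red above, blue below the mean; the scale ends at 0.8 either way), with patDp/+ mice left of the black line and wild type mice right of it. Most mitosis genes are red in patDp/+ mouse 2 and wild type mouse 3 and blue in patDp/+ mouse 3, and the S phase genes do not share that order.

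The spread of single genes showed the same contrast. The pooled standard deviation within groups had a median of 0.32 over the mitosis genes, 0.13 over the S phase genes and 0.15 over all genes. The 9489 genes with mean levels in the range of the mitosis genes (-4.61 to 0.34) had a median of 0.17, below that of the mitosis genes. The value was above the median of all genes in 20 of 24 mitosis genes and in 7 of 16 S phase genes.

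With the processed signal, the genotype difference in the mitosis genes had a different sign on slide 3 than on slides 1 and 2, and with normexp it did not. Each slide, as the file headers give it, carried 1 mouse of each genotype with the same replicate number. On slide 1 the mean difference was 0.19, with 20 of 24 mitosis genes higher in the patDp/+ mouse, against 51.2% of all genes. On slide 2 it was 0.49, with 24 of 24 higher, against 43.6% of all genes. On slide 3 it was -0.45, with 3 of 24 higher, against 43.9% of all genes. With normexp the mean differences on slides 1 to 3 were 0.25, 0.33 and 0.37, and in the 6 brightest mitosis genes they were 0.05, 0.50 and -0.36. The S phase genes had mean differences of 0.22, 0.04 and -0.06, with 14, 8 and 6 of 16 higher. Ccna2, for example, differed by 0.13, 0.68 and -0.85 on slides 1 to 3, Birc5 by 0.06, 0.91 and -0.51, and Prc1 by 0.10, 0.72 and -0.67. With the slide as a block, which here is also the replicate block, 2 of 40 members had an unadjusted p under 0.05 (Cdc6 and Nusap1) and 0 passed after adjustment.

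**Figure D4:**
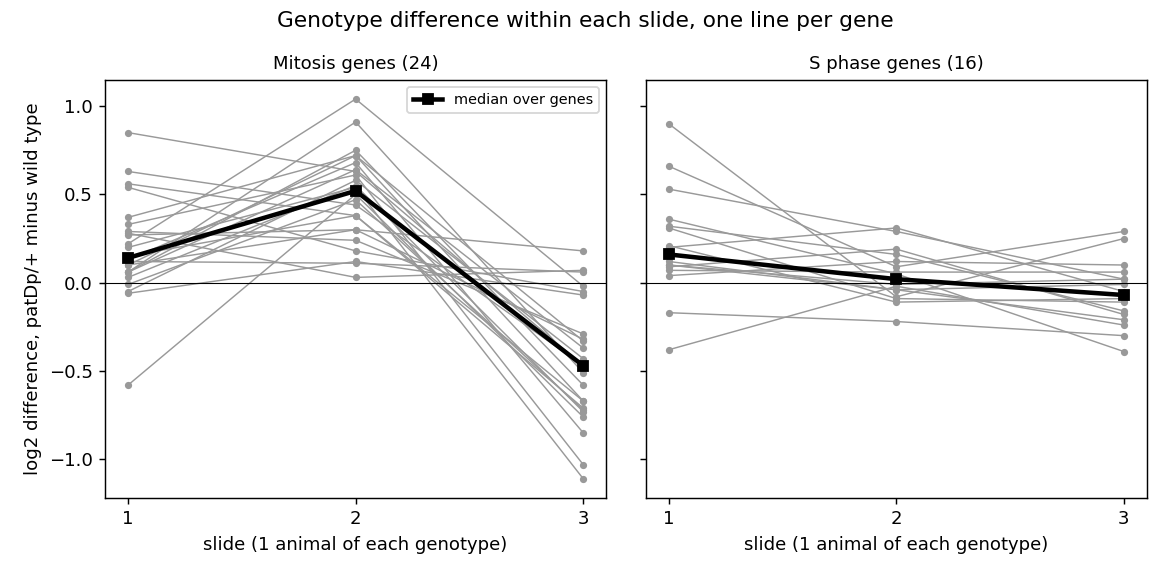
Log2 difference in processed signal, patDp/+ minus wild type (y axis), on each of 3 slides (x axis), with a grey line per gene and a black line for the median, for 24 mitosis genes and 16 S phase genes. The mitosis medians are 0.14, 0.52 and -0.47, and the S phase medians are 0.16, 0.02 and -0.07.

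Second probes of the same genes, also on the processed signal, placed patDp/+ mouse 3 low for the mitosis genes. Of 7 mitosis genes with another kept probe, that probe was lowest in patDp/+ mouse 3 for 7 and highest in patDp/+ mouse 2 for 5. In patDp/+ mouse 3 the second probes of Ccnb1 (-5.72), Cenpe (-5.32) and Top2a (-5.28) lay under -5.23. That was the lowest signal well above background on that array, so these low values are at the detection limit. For the second Mki67 probe the values were -1.20, -1.11 and -2.03 in patDp/+ mice, against -1.22, -1.77 and -1.39 in wild type mice. Wild type mouse 1 was nearly level with patDp/+ mouse 1 on this probe. The second Ccnb1 probe had -4.57, -4.10 and -5.72 in patDp/+ mice, against -4.89, -5.20 and -4.72 in wild type mice. Its low value in patDp/+ mouse 3, at the detection limit, was absent from the brighter Ccnb1 probe. Likewise the brighter Bub1 probe did not place patDp/+ mouse 3 low (0.17, 0.40 and 0.36 in patDp/+ mice, against 0.05, 0.28 and 0.30 in wild type mice). The dimmer Bub1 probe did, with -4.33, -4.10 and -4.94 in patDp/+ mice, against -4.51, -4.74 and -4.46 in wild type mice. Of 6 S phase genes with another probe, 1 was lowest in patDp/+ mouse 3 and 1 highest in patDp/+ mouse 2, in both cases Ccne2.

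The low mitosis mean of patDp/+ mouse 3 depended on the background correction when dim genes were included. With normexp correction of the raw spot signals, the mean over 24 mitosis genes in patDp/+ mouse 3 was 0.34, the highest of the 6 animals, where the processed signal gave -0.30, the lowest. The mean in patDp/+ mouse 2 was 0.09 with normexp and 0.31 with the processed signal. Under that correction the array shifted over the whole table: genes below -3 had a median centred value of 1.13 in patDp/+ mouse 3, and those between -3 and -1 had 0.44, against -0.10 and -0.03 with the processed signal. In the 6 brightest mitosis genes (Mki67, Ccnb2, Bub1, Birc5, Cdc20 and Prc1) the means with normexp were 0.33 in patDp/+ mouse 2 and -0.19 in patDp/+ mouse 3, against 0.39 and -0.30 with the processed signal. Quantile normalization gave 0.33 and -0.25 for all 24 genes in those animals, and the authors' deposited table gave 0.23 and -0.16. patDp/+ mouse 3 was also the array with the lowest share of probes well above background.

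**Figure D5:**
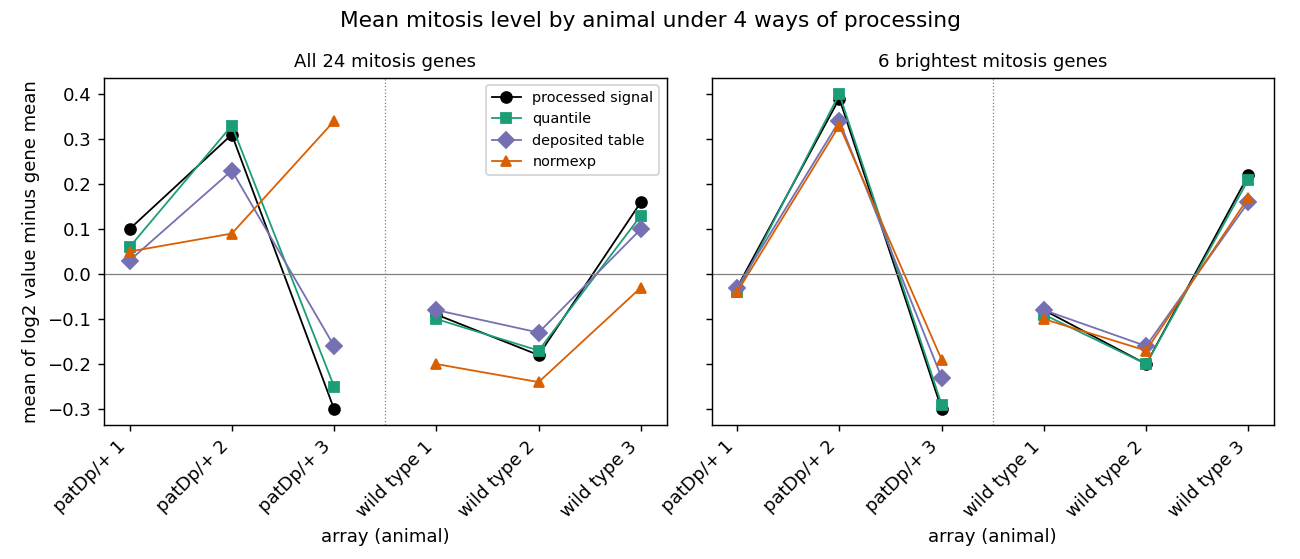
Mean centred log2 value (y axis) in each animal (x axis) for all 24 mitosis genes and for the 6 brightest of them, with a marker for each of 4 ways of processing. For all 24 genes normexp places patDp/+ mouse 3 at 0.34 where the processed signal places it at -0.30, and for the 6 brightest all 4 settings place it below 0.

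Other genes of division were read from wider lists that do not share members with the 40. Of 56 other mitosis genes, 50 were measured, and their mean centred values of 0.13, 0.25 and -0.29 in patDp/+ mice, against -0.13, -0.01 and 0.07 in wild type mice, had the same order within patDp/+ mice on the processed signal. With normexp they were 0.08, -0.07 and 0.58 in patDp/+ mice, so patDp/+ mouse 3 was then highest. On the processed signal patDp/+ mouse 2 was highest in 22 of 50 and patDp/+ mouse 3 lowest in 25 of 50. Of 44 other replication genes, 42 were measured, with means of 0.08, 0.05 and -0.08 in patDp/+ mice, against -0.04, 0.01 and -0.02 in wild type mice. In these lists 3 of 50 mitosis genes (Troap, Trip13 and Nek2) and 1 of 42 replication genes (Blm) had an unadjusted p under 0.05, and 0 passed after adjustment (limma, smallest 0.852). Troap passed the filter on dim probes through its patDp/+ arrays alone, so its place in that count follows from the filter. The shares over all genes are given above.

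Blm, a DNA helicase gene of recombination repair, had -1.86, -1.97 and -1.94 in patDp/+ mice, against -2.23, -2.12 and -2.22 in wild type mice. The groups were apart, with a difference of 0.26 ± 0.07 (SE, adjusted p = 0.852). Rpa2, of the single-strand DNA binding complex, had 0.16 ± 0.07, the cohesion loading gene Dscc1 0.23 ± 0.12 and Rad51ap1, of recombination repair, -0.27 ± 0.19. Among mitosis genes the checkpoint ATPase gene Trip13 had a difference of 0.32 ± 0.11, the centrosome kinase gene Nek2 0.31 ± 0.11 and the Cdk-binding gene Cks2 0.31 ± 0.14, with patDp/+ above wild type in all animals for each. Troap, a spindle-associated gene, was well above background in 3 of 3 patDp/+ mice and 0 of 3 wild type mice, and its signal was at least 1.46-fold higher in patDp/+ fat, given as a description because the filter kept it for those arrays. That bound sets each wild type array at the lowest signal among its probes well above background, or at the probe's own signal where higher.

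The genes that open or restrain the cycle did not differ past the threshold either. Of 11 G1 cyclins, kinases and drivers, 0 had an unadjusted p under 0.05 (limma), against 5.78% of all genes. The E2F family genes E2f3 (0.16 ± 0.08) and E2f2 (0.18 ± 0.17), the D-type cyclin gene Ccnd3 (-0.08 ± 0.08) and the phosphatase gene Cdc25a (-0.09 ± 0.11) had the smallest p. Of 17 measured inhibitors, 1 had an unadjusted p under 0.05, again against 5.78% of all genes. This was Cdkn1a, the p53-induced Cdk inhibitor p21, with -0.09, -0.12 and -0.55 in patDp/+ mice, against -0.78, -0.54 and -0.73 in wild type mice. patDp/+ mouse 3 was level with wild type mouse 2, and the difference was 0.43 ± 0.15 (SE, adjusted p = 0.856). Btg1 (-0.19 ± 0.12), an antiproliferative gene, and the Cdk inhibitors Cdkn2b (0.29 ± 0.21) and Cdkn2d (0.10 ± 0.08) followed.

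Markers of the cells in the tissue were averaged in the same way on the processed signal, to be read beside the mitosis means. Of 5 erythroid markers 2 were measured, the globin gene Hba-a1 and the heme synthesis gene Alas2, and their mean ran opposite to the mitosis genes in several animals, with -0.34, -0.19 and 0.74 in patDp/+ mice, against -0.07, 0.29 and -0.44 in wild type mice. Alas2 had 2.34, 2.48 and 3.62 in patDp/+ mice, against 2.64, 3.13 and 2.29 in wild type mice, so patDp/+ mouse 3 was highest and wild type mouse 3 lowest. The mean of 8 macrophage markers was 0.38, 0.20 and -0.17 in patDp/+ mice, against -0.07, -0.20 and -0.14 in wild type mice, with patDp/+ mouse 1 highest. The mean of 6 lipid-associated macrophage markers was 0.69, -0.07 and -0.39 in patDp/+ mice, against -0.28, -0.43 and 0.48 in wild type mice. It was low in patDp/+ mouse 3 and high in wild type mouse 3, as for the mitosis genes. Unlike them it was highest in patDp/+ mouse 1 and lowest in wild type mouse 2. In the 5 of these markers well above background on all 6 arrays, patDp/+ mouse 3 (-0.26) was level with wild type mice 1 and 2 (-0.26 and -0.27). The mean of 5 mesothelium markers was -0.01, 0.25 and -0.06 in patDp/+ mice, against -0.26, -0.05 and 0.12 in wild type mice, with patDp/+ mouse 2 highest.

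On the processed signal, the lymphoid markers were ordered differently from the mitosis genes. The mean of 6 B cell markers was -0.80, -0.44 and 0.21 in patDp/+ mice, against 0.35, 0.07 and 0.62 in wild type mice, with patDp/+ mouse 1 lowest. With normexp it was -0.43, -0.57 and 0.78, against 0.07, -0.04 and 0.18. There patDp/+ mouse 3 was highest, as in the normexp mean of all mitosis genes. The mean of 7 T cell markers was 0.40, 0.16 and 0.15 in patDp/+ mice, against -0.10, -0.24 and -0.37 in wild type mice, so every patDp/+ mean was above every wild type mean. The same held with normexp, at 0.26, -0.12 and 0.72 against -0.20, -0.19 and -0.47, again with patDp/+ mouse 3 highest. The markers were not alike. Cd8a (1.34 ± 0.13), Cd8b1 (1.16 ± 0.16) and Cd3d (0.44 ± 0.13) were apart between groups. Cd3g (0.53 ± 0.27), Lck (0.20 ± 0.12) and Cd3e (0.07 ± 0.09) overlapped, and so did Cd247, which was lower in patDp/+ mice (-0.43 ± 0.19). Of 5 germinal centre B cell markers 3 were measured, with means of -0.23, 0.27 and -0.15 in patDp/+ mice, against -0.26, 0.00 and 0.37 in wild type mice. The adipocyte mean stayed between -0.06 and 0.07, the progenitor mean between -0.09 and 0.09 and the endothelial mean between -0.19 and 0.24. Of 7 testis germ cell markers, chosen because the testis lies beside this depot, 6 passed the filter, with means of -0.12, 0.09 and -0.04 in patDp/+ mice, against -0.07, 0.01 and 0.14 in wild type mice. The part of these cell types in the spread of the mitosis genes was not tested.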

How the data were processed

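Scanner files of 6 one-colour arrays, 1 per mouse, gave the values. Per the file headers, Feature Extraction 9.5.1.1 made the processed intensity, with background subtraction and spatial detrending inside each array and no scaling between arrays. Raw mean and local background intensities of the spots come from the same deposited files and served the normexp alternative. A table of log2 values with shared quantiles, deposited by the authors, was another alternative. The sources used here do not give its background correction. The 6 columns, matched by name, had medians of 7.62 to 7.63. They correlated with their own array at 0.770 to 0.862 after centring each probe, against 0.085 at most for another array. Per the submitters' processing notes, the tools were limma 3.18.2 and Agilent Feature Extraction 9.5, whose roles are not stated.

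Groups were taken from the sample titles. Controls and outlier spots were left out, log2 of the processed signal was set relative to the 75th percentile of each array, and probes well above background on at least 3 of 6 arrays were kept (27975 of 41174). The brightest kept probe stood for a gene. The 40 members had 65 probes by gene name, 53 of them kept, and the chosen probe was well above background on all 6 arrays for 39. Probe coordinates are mm9, from the scanner files, and their position relative to exons was not analysed here. Promoters were the first RefSeq window of each gene (GRCm38.p6).

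limma 3.58.1 in R 4.3.3 (lmFit, eBayes, two-sided, no covariate) was fitted to all 18992 genes with Benjamini-Hochberg adjustment, and tested on simulated data. Each group is 3 separate mice by the design text, so p-values measure the spread between animals, whose number limits the precision. Same-numbered mice shared a slide, but their deviations correlated at only 0.105, -0.0899 and -0.0407, so the numbers were not taken to pair samples. The members and the gene lists were chosen with earlier results of these data known. Values on every array are given for the 6 members of each set with the smallest p and for Mki67, Top2a, Cdk1, Ccnb1, Mcm2, Mcm5, Pcna and Rrm2. Up to 4 genes with the smallest p are named from each other division list. Values on every array of second probes, Blm, Cdkn1a and Alas2, and the slide differences of Ccna2, Birc5 and Prc1, were chosen after they were seen.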

Additional observations from a re-analysis of the deposited data

How the results depend on the processing

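Across 15 alternatives to the fit, 0 members passed after adjustment (smallest adjusted p 0.405), and 0 genes of the whole table did. Members with an unadjusted p under 0.05 numbered 0 in the fit reported and 3 with normexp, 1 with quantile normalization, 1 with the deposited table, 1 with the filter on all 6 arrays, 2 with array weights and 1 with an intensity trend and robust variance. With the slide as replicate block they numbered 2. The median differences of the members cannot move under that block, since each slide held 1 mouse of each genotype and no member value was missing. Leaving out 1 mouse in turn gave 0 to 5, with 5 without patDp/+ mouse 3 (Ccne2, Mcm5, Aurkb, Kif23 and Ndc80, all higher), 2 without wild type mouse 2 and 1 without wild type mouse 3. Over all genes the count of 1098 (5.78%) became 755 to 1798, the highest again without patDp/+ mouse 3. It was 816 with normexp, 1102 with quantile normalization, 959 with the deposited table and 1083 with the filter on all 6 arrays. With array weights it was 1542, with an intensity trend and robust variance 1146, and with the slide as replicate block 999. In all, 9 members had such a p in 19 of 599 refits, Nusap1 in 6 and Mcm7 in 4. The share of such refits over all genes was not worked out. With normexp the difference of Mcm4 turned to -0.02 and that of Cdc6 to 0.41. Means over mitosis genes with normexp, an alternative chosen after seeing the data, were 0.34 in patDp/+ mouse 3 and -0.03 in wild type mouse 3. The cause was not tested. Signs were not followed for 27 members whose difference was smaller than its standard error, of which 23 changed sign somewhere. Ccne2 has no value under the filter on all 6 arrays. The mitosis median of 0.08 was 0.28 with normexp and -0.06 to 0.25 with 1 mouse left out, and the S phase median of 0.04 was 0.12 with normexp and -0.01 to 0.11 with 1 mouse left out.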
